A study of Mus musculus with 3 samples.

Results

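The costimulatory and inhibitory receptors described here are 10 genes, Icos, Cd40lg, Cd28, Ctla4, Pdcd1, Tigit, Cd226, Btla, Lag3 and Cd200r1, chosen by name from 19518 genes that had a probe set of their own on the arrays. Each of the 10 was measured by exactly 1 probe set that names no other gene. RNA came from thymocytes labelled as gammadelta NKT cells of female C57Bl/6 mice aged 3 to 4 weeks, with 1 array each for PLZF lu/lu, PLZF +/lu and PLZF +/+. The luxoid allele (lu) is a point mutation in Zbtb16, the gene of the transcription factor PLZF, so PLZF lu/lu mice carry only the mutant form, PLZF +/lu mice carry both forms and PLZF +/+ mice are wild type. By the study's methods, mice of all 3 genotypes were also Rag1-/- and carried a Vγ1Vδ6.4 T cell receptor transgene, and CD4+CD8- cells were sorted in a double sort. Mice without Rag1 cannot rearrange antigen receptor genes of their own, so the T cells of all groups carry the transgenic receptor. How many mice stand behind each array was not stated in the sources used here.

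T cells read antigen through their receptor and adjust the response through a second set of surface molecules. CD28 and ICOS are activating relatives that bind B7 family ligands on antigen-presenting cells, and CTLA-4 takes the ligands of CD28 away from it. CD40 ligand, the product of Cd40lg, is the T cell partner of CD40 on B cells and dendritic cells. PD-1 (Pdcd1), BTLA, TIGIT, LAG-3 and the CD200 receptor (Cd200r1) restrain T cells, and TIGIT competes with the activating receptor CD226 for the ligand CD155. Innate-like T cells such as NKT cells leave the thymus already armed, and ICOS and PD-1 are among the receptors known from them.

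The arrays gave a fluorescence intensity per probe set on a linear scale, with array medians between 159.7 and 161.8. Zbtb16 itself was at 2890.3 in PLZF lu/lu, 6143 in PLZF +/lu and 8796 in PLZF +/+, and a mutant transcript can still hybridise. The T cell genes Cd3d, Cd3e, Cd3g, Cd247 and Cd4 lay above background on every array, and the gene of the TCR delta constant region has no value here, since no probe set names it alone. Background was taken as an intensity of 108, below which 95% of the values of 1033 olfactory receptor probe sets fell. Of 10 myeloid markers, 6 stayed below background on all arrays, Lyz2 and Csf1r among them, and the sum of all 10 was 1300.2 in PLZF lu/lu, 1293 in PLZF +/lu and 1330.1 in PLZF +/+. Of 4 NK cell markers 3 were below background throughout, as were 3 of 5 markers of thymic epithelium. Of 5 measured B cell markers 3 were below background, and Cd79b, a chain of the B cell receptor, was at 1406 in PLZF lu/lu, 1440.2 in PLZF +/lu and 1658 in PLZF +/+. Of 6 markers of CD8 or immature thymocytes, 4 were higher in PLZF lu/lu than in PLZF +/+ and 2 were equal, and their summed intensity was 4348 in PLZF lu/lu, 3362 in PLZF +/lu and 2252 in PLZF +/+. Cd8b1, the CD8 beta chain, made up most of that sum. Cd24a, a marker of immature thymocytes, was at 361 in PLZF lu/lu, 207 in PLZF +/lu and 213 in PLZF +/+. Dntt, the gene of terminal transferase, was at 209.7 in PLZF lu/lu, 157 in PLZF +/lu and 162 in PLZF +/+. For Cd24a and Dntt, PLZF lu/lu alone was thus raised, as it was for Tigit and Cd200r1. Cd8a and Cd8b1 instead rose in steps, with PLZF +/lu between. Ptcra was at 167 on each array, and Rag2 was below background on all arrays. The sum ran in the direction of Cd200r1, Tigit and Btla and against that of Icos, Cd40lg and Pdcd1, and the part of these markers in the results below was not tested. RNA of sorted cells was measured in bulk, so fewer cells with a receptor and less RNA per cell cannot be told apart.

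With 1 array per genotype no difference has a replicate check and no p-value is given. More than 2-fold is used as a rule of size, and differences are on the log2 scale, where 1 is 2-fold. Between PLZF lu/lu and PLZF +/+, 4 of the 10 receptor genes passed 2-fold, against 0.589% of all 24800 probe sets and 0.664% of the 14765 above the level of 108 on all arrays. All 10 genes exceeded that level on each array, Lag3 and the lower values of Cd200r1 by little. Cd200r1 and Tigit were higher in PLZF lu/lu, against 0.302% of probe sets past 2-fold in that direction, and Icos and Cd40lg were lower, against 0.286%. Earlier results of these arrays were known when the genes were chosen, so the count describes these genes and is no independent evidence. In all, 5 receptor genes were higher in PLZF lu/lu to any degree, 4 were lower and 1 was equal, with a median difference of 0.03 beside 0.00 over all probe sets. The median size of the difference regardless of sign was 0.57, beside 0.017 over those 14765 probe sets. Exact ties lower the second value: 32.8% of those probe sets were equal on all 3 arrays. A further 10.9% had PLZF lu/lu equal to PLZF +/+ alone.

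**Figure D1:**
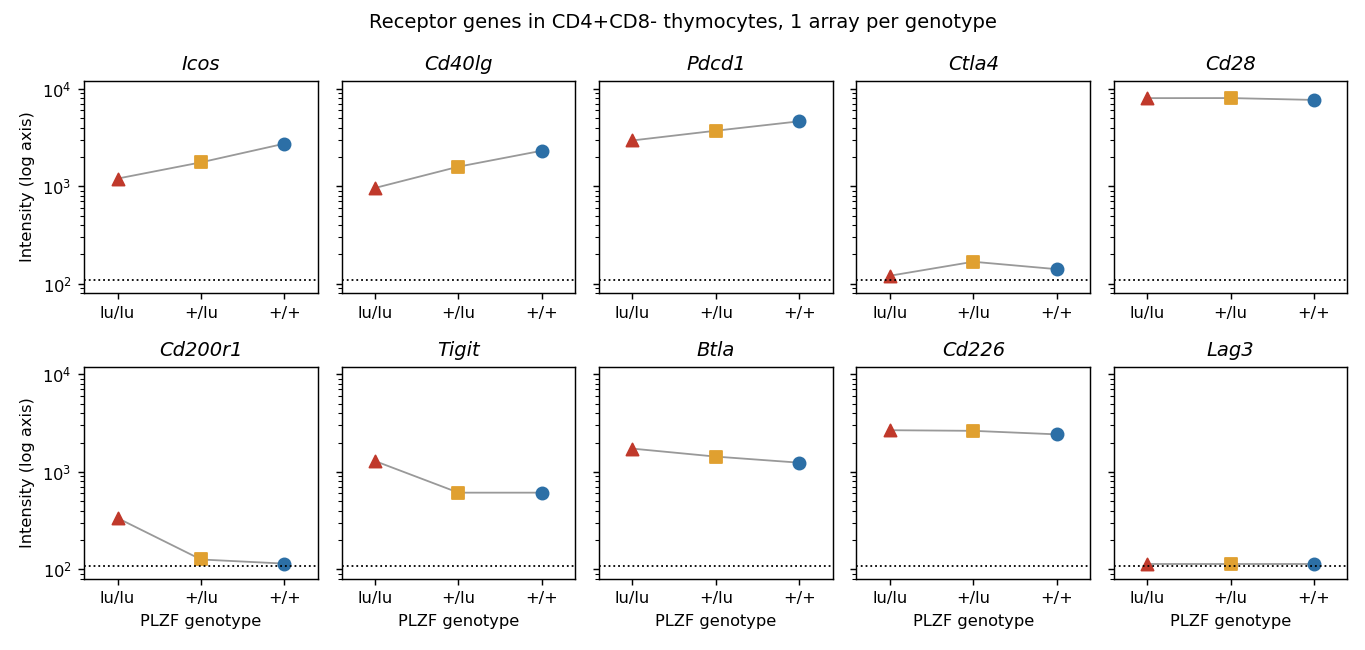
Intensity on a log axis of the 10 receptor genes in PLZF lu/lu (triangles), PLZF +/lu (squares) and PLZF +/+ (circles) thymocytes; each point is the only array of its genotype, so no error can be drawn, and the dotted line is the background level of 108. Icos, Cd40lg and Pdcd1 are lowest in PLZF lu/lu with PLZF +/lu between, while Cd200r1 and Tigit stand high only in PLZF lu/lu.

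Of the activating genes, Icos had an intensity of 1198 in PLZF lu/lu, 1758 in PLZF +/lu and 2733 in PLZF +/+ cells. PLZF lu/lu was lower than PLZF +/+ by 2.28-fold, a log2 difference of -1.19. The heterozygous array sat near the middle, with a difference of -0.64 from PLZF +/+ and of -0.55 between PLZF lu/lu and PLZF +/lu, so neither single step reached 2-fold. Cd40lg was at 959.8 in PLZF lu/lu, 1587 in PLZF +/lu and 2313 in PLZF +/+, a 2.41-fold lower level in PLZF lu/lu (log2 difference -1.27). Its steps were -0.54 for PLZF +/lu against PLZF +/+ and -0.73 for PLZF lu/lu against PLZF +/lu. Ranked among all 19518 genes by their difference, Cd40lg was number 36 and Icos number 40 of the genes lower in PLZF lu/lu. Their profiles over the 3 arrays lay at a distance of 0.12 between the centred log2 values. Other genes lay closer to each, such as Adh1 to Icos (0.059) and Abcc1 to Cd40lg (0.062). The closeness is therefore not particular to this pair.

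Cd28, whose product gives the classical second signal to naive T cells, was at 8013 in PLZF lu/lu, 8024 in PLZF +/lu and 7679 in PLZF +/+. The largest gap among these arrays was 1.05-fold, in contrast to the 2.28-fold of its relative Icos. Cd226, the activating counterpart of TIGIT, was at 2676 in PLZF lu/lu, 2636 in PLZF +/lu and 2426 in PLZF +/+, which put PLZF lu/lu 1.10-fold higher than PLZF +/+. Both genes were far above background on every array and differed little between genotypes.

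The inhibitory receptors did not move as a group. Pdcd1 was at 2948 in PLZF lu/lu, 3712 in PLZF +/lu and 4634 in PLZF +/+. It was thus 1.57-fold lower in PLZF lu/lu than in PLZF +/+ (log2 difference -0.65), in the direction of Icos and Cd40lg and with PLZF +/lu again near the middle. This is below the 2-fold rule but past 1.5-fold, which 0.879% of probe sets passed in that direction. Cd200r1, Tigit and Btla ran the opposite way.

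Cd200r1, whose product binds CD200, was at 336 in PLZF lu/lu, 126 in PLZF +/lu and 115 in PLZF +/+. The deposited values put PLZF lu/lu 2.93-fold above PLZF +/+ (log2 difference 1.55) and 2.66-fold above PLZF +/lu (1.41). The 2 lower values lay at the edge of the background, with 3.19% and 3.97% of olfactory receptor values brighter than the PLZF +/lu and PLZF +/+ values. These folds are therefore not exact, and with 32 added to each intensity the log2 difference between PLZF lu/lu and PLZF +/+ was 1.33. A difference between PLZF +/lu and PLZF +/+ could not be read at this level.

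Tigit was at 1291 in PLZF lu/lu and at 612 in both PLZF +/lu and PLZF +/+. PLZF lu/lu was 2.11-fold higher than either of the others (log2 difference 1.08), rank 21 among genes higher in PLZF lu/lu. The values of PLZF +/lu and PLZF +/+ were equal to within 1e-06 on the log2 scale. Exact ties are common in the deposited values: of the probe sets above background on all arrays, 8.68% had PLZF +/lu equal to PLZF +/+ alone and 32.8% had the same value on all 3 arrays. An exact tie in these values is therefore no measure of how alike the levels were.

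Btla, whose product binds the TNF receptor family member HVEM, was at 1732 in PLZF lu/lu, 1434 in PLZF +/lu and 1242 in PLZF +/+. It was 1.39-fold higher in PLZF lu/lu than in PLZF +/+ (log2 difference 0.48), in even steps of 0.27 and 0.21. Ctla4 was at 121 in PLZF lu/lu, 168 in PLZF +/lu and 141 in PLZF +/+, close to background, with the heterozygous array the brightest and PLZF lu/lu lower than PLZF +/+ by a log2 difference of -0.22. Lag3, which encodes a receptor for MHC class II, was at 113 on each of the 3 arrays. Of the olfactory receptor values 4.32% were brighter than that, and 28 other probe sets of the PLZF lu/lu array held exactly the same value, so Lag3 was not measured apart from background.

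The promoter windows of the 3 members with the largest differences among those with a RefSeq window are shown, as the 250 bases upstream of the annotated start (GRCm38.p6). Tigit and Btla were higher and Pdcd1 was lower in PLZF lu/lu. Capitals mark the E-box CANNTG, the motif of E proteins, basic helix-loop-helix factors that act in thymocytes; the motif reads the same on both strands. It occurs once each in the Tigit and Btla windows and has no match in that of Pdcd1, while 66.0% of 27025 such windows, 1 per gene, hold it.
Tigit, chr16:43664185-43664434, - strand: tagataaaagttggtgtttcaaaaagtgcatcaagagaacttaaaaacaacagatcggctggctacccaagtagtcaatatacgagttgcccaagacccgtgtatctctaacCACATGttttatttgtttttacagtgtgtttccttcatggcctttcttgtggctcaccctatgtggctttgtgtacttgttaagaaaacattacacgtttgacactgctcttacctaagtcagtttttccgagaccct
Btla, chr16:45224087-45224336, + strand: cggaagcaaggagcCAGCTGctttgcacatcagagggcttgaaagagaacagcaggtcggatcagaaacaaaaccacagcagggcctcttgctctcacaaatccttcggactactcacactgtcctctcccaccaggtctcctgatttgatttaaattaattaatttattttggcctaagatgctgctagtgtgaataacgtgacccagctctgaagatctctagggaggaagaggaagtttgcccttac
Pdcd1, chr1:94052554-94052803, - strand: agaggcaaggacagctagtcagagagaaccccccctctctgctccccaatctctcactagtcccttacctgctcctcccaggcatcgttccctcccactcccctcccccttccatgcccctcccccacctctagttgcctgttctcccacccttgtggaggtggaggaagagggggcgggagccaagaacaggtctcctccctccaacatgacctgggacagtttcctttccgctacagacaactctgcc
A match is a description of the letters only. A window of Ctla4 also holds 1 match, and Icos, Cd40lg, Cd28, Cd226, Lag3 and Cd200r1 were not matched to a window.

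**Figure D2:**
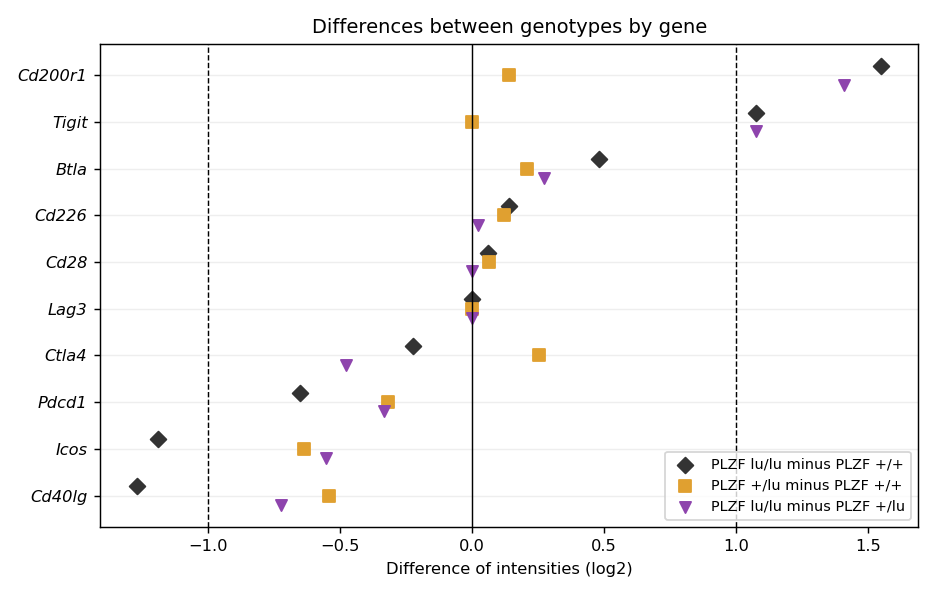
Log2 difference of intensities for each receptor gene in the 3 pairs of genotypes, PLZF lu/lu minus PLZF +/+ (diamonds), PLZF +/lu minus PLZF +/+ (squares) and PLZF lu/lu minus PLZF +/lu (triangles); dashed lines mark 2-fold. For Cd200r1 and Tigit the diamond and triangle lie past 2-fold and the square near 0, while for Icos and Cd40lg both single steps stay inside 2-fold.

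The heterozygous array was compared with both others. Between PLZF +/lu and PLZF +/+ none of the 10 genes passed 2-fold, against 0.234% of all probe sets, and between PLZF lu/lu and PLZF +/lu 2 did, Cd200r1 and Tigit, both higher in PLZF lu/lu, against 0.319% in either direction and 0.198% in that direction. These comparisons share arrays with each other and are not independent. PLZF +/lu lay strictly between the other genotypes for 6 of the 10, against 17.7% of probe sets above background. Ties widen that gap, since a tied probe set cannot lie strictly between: it was 6 of the 8 genes without a tie, against 47.8% of the probe sets without one. These shares are not matched for the size of the difference between PLZF lu/lu and PLZF +/+. That size was larger for most of the 10 than for most genes above background, so the excess is not read as their trait. In 3 of the 6 genes with PLZF +/lu between, Icos, Cd40lg and Pdcd1, PLZF lu/lu was lowest, as it was for Zbtb16. In the other 3, Cd200r1, Btla and Cd226, it was highest. For Cd200r1 the middle place rests on values at the edge of the background and cannot be read. For Cd226 the step between PLZF lu/lu and PLZF +/lu was only 0.02 on the log2 scale.

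The place of PLZF +/lu can be given as a percentage of the way from PLZF lu/lu (0) to PLZF +/+ (100) on the log2 scale. It was 46.5% for Icos, 57.2% for Cd40lg, 50.9% for Pdcd1 and 56.8% for Btla, and 67.7% for Zbtb16. For Cd200r1 and Tigit the place is not read, since it rests on values at the edge of the background for the one and on an exact tie for the other. Among genes above background and past 2-fold the median place was 47.8% for the 29 higher and 39.2% for the 49 lower in PLZF lu/lu. With no replicate the places have no error.

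**Figure D3:**
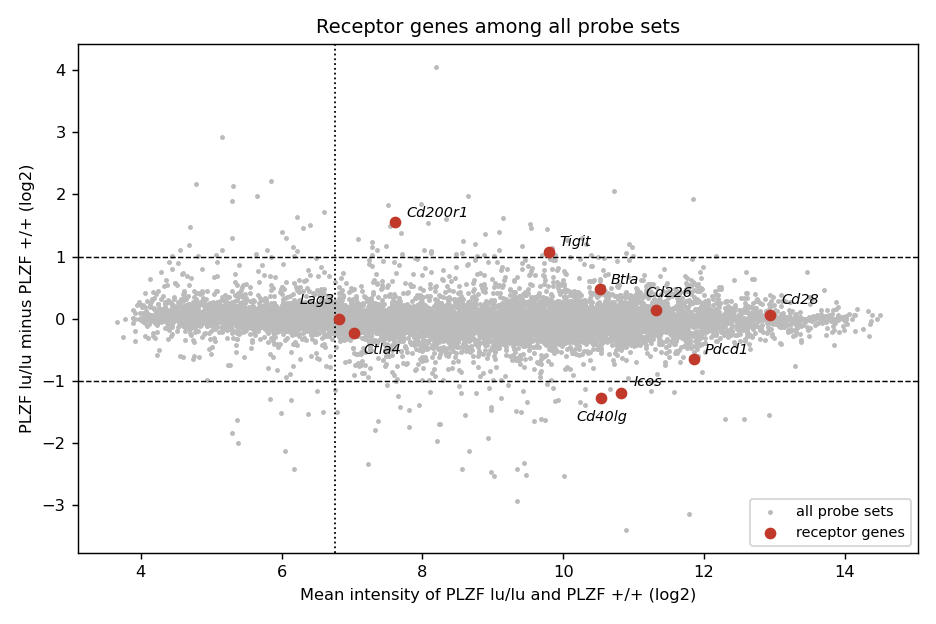
Difference between PLZF lu/lu and PLZF +/+ against the mean intensity of both arrays, both on the log2 scale, for all 24800 probe sets (grey) and the 10 receptor genes (red); dashed lines mark 2-fold and the dotted line the background level. Cd200r1 and Tigit lie above and Icos and Cd40lg below the dashed lines, while Lag3 and Ctla4 sit close to background.

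Other receptors that tune T cell activation showed smaller differences. Of 24 measured genes in a list of further inhibitory and costimulatory receptors, 0 passed 2-fold in any pair of genotypes. Between PLZF lu/lu and PLZF +/+, 13 were higher in PLZF lu/lu, 5 lower and 6 equal. Their median difference was 0.04. Of all probe sets 0.589% passed 2-fold between PLZF lu/lu and PLZF +/+. The shares were 0.234% between PLZF +/lu and PLZF +/+ and 0.319% between PLZF lu/lu and PLZF +/lu. At such shares a count of 0 is no result about the list. Cd96, a receptor that shares the ligand CD155 with TIGIT and CD226, was at 4266 in PLZF lu/lu, 3731 in PLZF +/lu and 2927 in PLZF +/+, a log2 difference of 0.54. Cd7 was at 3474 in PLZF lu/lu, 4213 in PLZF +/lu and 4602 in PLZF +/+, a difference of -0.41. These 2 were the largest differences of the list among genes above background on all arrays, and in both PLZF +/lu lay between.

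Ligands and counter-receptors of the 10, many of them known from antigen-presenting cells, were low in part. Of 18 measured, 10 stayed below background on all arrays, among them Cd80, Cd86, Icosl and Pdcd1lg2, whose products are the ligands of CD28, CTLA-4, ICOS and PD-1. Cd274, the other PD-1 ligand, was at 914 in PLZF lu/lu, 981 in PLZF +/lu and 969 in PLZF +/+, and Cd200, the ligand of the CD200 receptor, was at 211 on all 3 arrays. Tnfrsf14, which encodes HVEM, was at 1592 in PLZF lu/lu, 1468 in PLZF +/lu and 1323 in PLZF +/+, in the same order as its partner Btla. The list had 1 member past 2-fold, Lgals3, whose product galectin-3 binds LAG-3 among other glycoproteins. It passed between PLZF lu/lu and PLZF +/+, against 0.589% of all probe sets. It also passed between PLZF +/lu and PLZF +/+, against 0.234%. This 1 gene is not read as a trait of the list. Lgals3 was at 235 in PLZF lu/lu, 346 in PLZF +/lu and 1787 in PLZF +/+, so that PLZF +/lu was already lower than PLZF +/+ by a log2 difference of -2.37.

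The molecules that carry the signals of these receptors inside the cell differed little. Of 19 measured genes, all above background, 0 passed 2-fold in any pair of genotypes. Between PLZF lu/lu and PLZF +/+, 8 were higher in PLZF lu/lu, 6 lower and 5 equal. Of all probe sets 0.234% to 0.589% passed 2-fold, depending on the pair, so a count of 0 is no result about this list. The largest differences were those of Lrba and Ptpn6. Lrba, which protects CTLA-4 from degradation, was at 1497 in PLZF lu/lu, 1354 in PLZF +/lu and 1188 in PLZF +/+, a difference of 0.33. Ptpn6, the phosphatase SHP-1 that binds inhibitory tails, was at 1776 in PLZF lu/lu, 1806 in PLZF +/lu and 2146 in PLZF +/+, a difference of -0.27. Ptpn11, the phosphatase that PD-1 recruits, was at 1057 in PLZF lu/lu, 1057 in PLZF +/lu and 1076 in PLZF +/+.

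**Figure D4:**
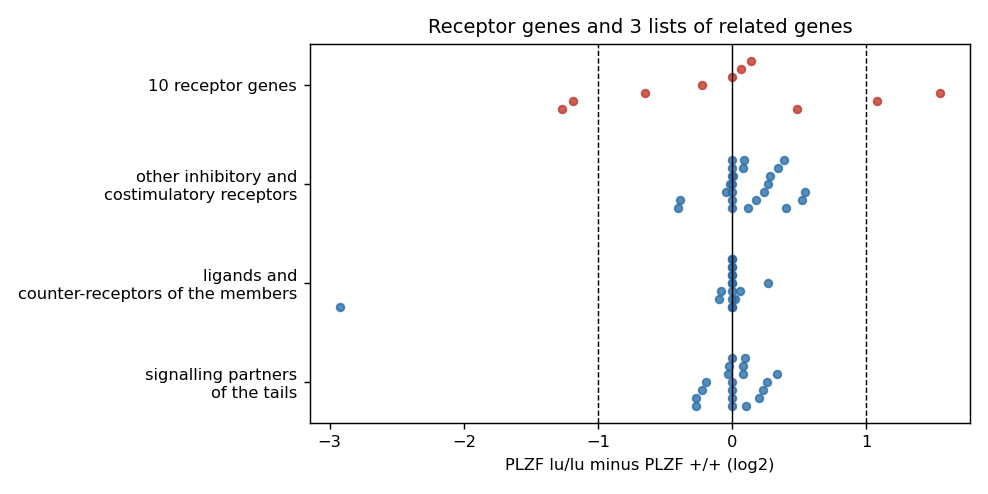
Log2 difference between PLZF lu/lu and PLZF +/+ for the 10 receptor genes (red) and for the measured genes of 3 related lists (blue), with points spread vertically for visibility and dashed lines at 2-fold. Of the related genes Lgals3 alone lies outside the dashed lines.

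The genes whose profile over the 3 arrays was closest to each member past 2-fold were found among 11173 genes above background, by the distance between centred log2 values. For Icos they were Adh1, an alcohol dehydrogenase gene (distance 0.059), Nrp1, a semaphorin co-receptor gene (0.069), and the chemokine receptor gene Cxcr2 (0.092). For Cd40lg they were the efflux transporter gene Abcc1 (0.062), Cxcr2 again (0.073) and Eps8l1 (0.082). Each of these 5 genes was lower in PLZF lu/lu with PLZF +/lu between, which follows from choosing them by profile. For Tigit the closest was Cish, a gene of the SOCS family of cytokine signalling inhibitors, at 736 in PLZF lu/lu and 389 in both PLZF +/lu and PLZF +/+, followed by Sorl1 and Arap2 (distances 0.13, 0.13 and 0.19). For Cd200r1 they were Bivm (0.045), Rflnb (0.19) and the semaphorin gene Sema4f (0.24). Bivm was at 460.3 in PLZF lu/lu, 180.0 in PLZF +/lu and 158 in PLZF +/+. With 3 arrays such a match describes these values only.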

How the data were processed

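Affymetrix Mouse Gene ST arrays of 3 samples were analysed, 1 per genotype. The authors processed the scans in GenePattern, removed normalization controls and deposited 24800 probe set intensities for each array, not on a log scale. Genome build mm 8 is named in the submitters' processing notes. How background was corrected and probes were summarised and scaled was not stated in the sources used here. All 3 value columns matched a sample and 0 did not. The platform annotation supplied gene names, with 21065 naming exactly 1 gene, 1187 several and 2548 none, and its gene identifiers gave current symbols in GRCm38.p6. A gene measured by more than 1 probe set is represented by the brightest of them on average.

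Intensities were taken to log2 without a pseudocount. A difference counts past 2-fold. The named genes are the 10 members, genes of 3 related lists past 2-fold or else their 2 largest differences above background, chromosomal neighbours, and the 3 genes closest in profile to each member past 2-fold; a few further ligand and phosphatase genes were named after their values were seen. Members and lists were chosen with earlier results of these data known. Fold calls were tested on simulated data, which checks the counting only, since the simulation held no exact ties and no measured spread between mice. Alternatives were other scalings (limma 3.58.1, R 4.3.3), 32 added to each intensity, a filter on dim probe sets, the mean over probe sets, and thresholds of 1.5-fold and 3-fold. Python 3.11.15, numpy 2.4.6, pandas 2.3.3 and matplotlib 3.10.9 were used. The number of arrays limits the precision. Flow cytometry and qPCR were not analysed here.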

Additional observations from a re-analysis of the deposited data

How the results depend on the processing

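Under quantile normalization, median centring, cyclic loess and 32 added, the 4 receptor genes past 2-fold between PLZF lu/lu and PLZF +/+ kept their direction and stayed past 2-fold. The filter on dim probe sets and the mean over probe sets could change none of the 10, each of which has 1 probe set above the background level. Tigit came closest to the threshold, with differences from 1.04 to 1.11, and Cd200r1 moved most, from 1.33 with 32 added to 1.55. Icos ranged from -1.19 to -1.17 and Cd40lg from -1.27 to -1.24. At 1.5-fold, 1 gene (Icos) passed between PLZF +/lu and PLZF +/+ where 0 did at 2-fold. At 3-fold, 0 passed between PLZF lu/lu and PLZF +/+, and 0 between PLZF lu/lu and PLZF +/lu. The shares of all probe sets past these thresholds in these pairs were not computed. These counts are therefore not compared with the arrays as a whole. PLZF +/lu lay strictly between the other genotypes for 6 or 7 genes under these scalings, and Lgals3 was the 1 related gene past 2-fold as deposited, with a count of 1 under every alternative. No paired analysis was possible because each genotype has 1 array. Dim signal limits Lag3, Ctla4 and the lower values of Cd200r1.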

Other observations

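Cd28, Ctla4 and Icos follow each other on their chromosome, with no other protein-coding gene between them in the annotation. Within this cluster Icos differed by -1.19 on the log2 scale between PLZF lu/lu and PLZF +/+, Ctla4 by -0.22 and Cd28 by 0.06. Pard3b, the next gene beyond Icos, was below background on all arrays. Raph1, beyond Cd28, was at 840.5 in PLZF lu/lu and 836 in PLZF +/lu and PLZF +/+.

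Cd200r1 and Btla, both higher in PLZF lu/lu, are separated by 6 protein-coding genes. Of these 0 passed 2-fold between PLZF lu/lu and PLZF +/+, against 0.589% of all probe sets. The nearby relatives Cd200r2, Cd200r3 and Cd200r4 were below background on all arrays, the brightest value being 26.2. Ccdc80 was below it too, at 32.6 on each array, so these genes could not be read. Slc35a5 was at 839.5 in PLZF lu/lu, 746 in PLZF +/lu and 839.5 in PLZF +/+. Atg3, an autophagy gene next to Btla, was at 1254 in PLZF lu/lu, 1208 in PLZF +/lu and 1326 in PLZF +/+. Gtpbp8, on the other side of Cd200r1, was at 490.0 in PLZF lu/lu, 374 in PLZF +/lu and 360.2 in PLZF +/+, which put PLZF lu/lu higher than PLZF +/+ by 0.44 on the log2 scale. Zbtb20 and Drd3, on the sides of Tigit, differed by 0.14 and 0.12, and Drd3 was below background on all arrays.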
